A study of Mus musculus with 21 samples.

Results

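The effect of heat on the wild-type mouse testis 72 h after a heat shock was described here from 10 of the 21 RNA sequencing libraries of the study. The comparison set 4 libraries of heated wild-type testes against 6 libraries of unheated wild-type testes, and 19142 genes of 55573 listed entries were tested, those whose TPM averaged 1 or more over these 10 libraries. TPM is the share of a transcript in its library, per length and scaled so that each library sums to the same total. All animals were males of the C57BL6 strain and whole testes were used. How hot and how long the heat shock was, how old the mice were, how unheated animals were handled and whether testes were pooled is not stated in the labels used. The libraries were prepared as separate biological replicates, per the labels' protocols. The other 11 libraries, from Mageb4 knockout animals, entered only 1 alternative fit.

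Sperm are made in the seminiferous tubules in a fixed order. Spermatogonia divide and enter meiosis as spermatocytes, these give round spermatids, and round spermatids elongate, condense their nuclei with protamines and grow a tail. Sertoli cells line the tubules, nurse the germ cells and take up those that die, peritubular myoid cells wrap the tubules, and Leydig cells between the tubules make testosterone. The mouse testis is kept cooler than the body, and meiotic spermatocytes and round spermatids are known as the germ cells most easily killed by heat.

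Gene expression within a group was alike, with a Pearson correlation of log2(TPM + 1) across genes of 0.990 to 0.993 between unheated and 0.970 to 0.985 between heated libraries. Markers of the tissue were found in every library: protamine Prm1 was at 2570.3 TPM or more, the Leydig cell hormone Insl3 at 682 TPM or more and the Sertoli cell factor Sox9 at 3.34 TPM or more. Heated replicate 3 stood apart, since the listed epididymal genes summed to 2458 TPM there and to at most 9.99 TPM in each other library. Crisp1, an abundant secretory protein of the epididymis, was at 2126 TPM in that library. The epididymis is the duct attached to the testis, and the values of single genes, the list medians and counts and the counts of called genes were therefore repeated without heated replicate 3. Because the values are shares of whole-testis RNA, fewer cells of a type, less RNA per cell and a larger share left to other transcripts cannot be told apart.

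Nearly the whole transcriptome differed between the groups. By limma, 17500 genes (91.4%) passed an adjusted p of 0.05, of which 9132 (47.7%) were higher and 8368 (43.7%) lower in heated testes. Restricted to changes of at least 2-fold on the log2(TPM + 1) scale, 6008 (31.4%) were higher and 5781 (30.2%) lower. The groups did not overlap in 8648 genes (45.2%) that were higher after heat and in 7919 (41.4%) that were lower. On the same scale the largest changes leaned to 1 side: 450 genes fell and 19 rose by at least 16-fold, and 2934 fell and 2214 rose by at least 4-fold. The pseudocount of 1 shrinks changes of low genes on this scale. Zbtb16, for example, was 4.23-fold higher in mean TPM but had a log2 change of 1.49. How far the lean depends on the scale was not tested. The median log2 change over all genes tested was 0.11, and only 554 genes (2.89%) had a 95% interval lying within 0.25 of 0. With so high a share of genes called, a count of called members in a list carries little by itself, and the sizes are given beside it. A median-of-ratios scaling moved the log2 changes by a median of -0.15, and a rescaling without mitochondrial transcripts by 0.14, so changes of that size depend on the scaling. Quantile normalization moved some abundant transcripts by more, such as Prm2 from a log2 change of 0.30 to -0.68 and Smcp from 0.62 to -0.29.

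**Figure D1:**
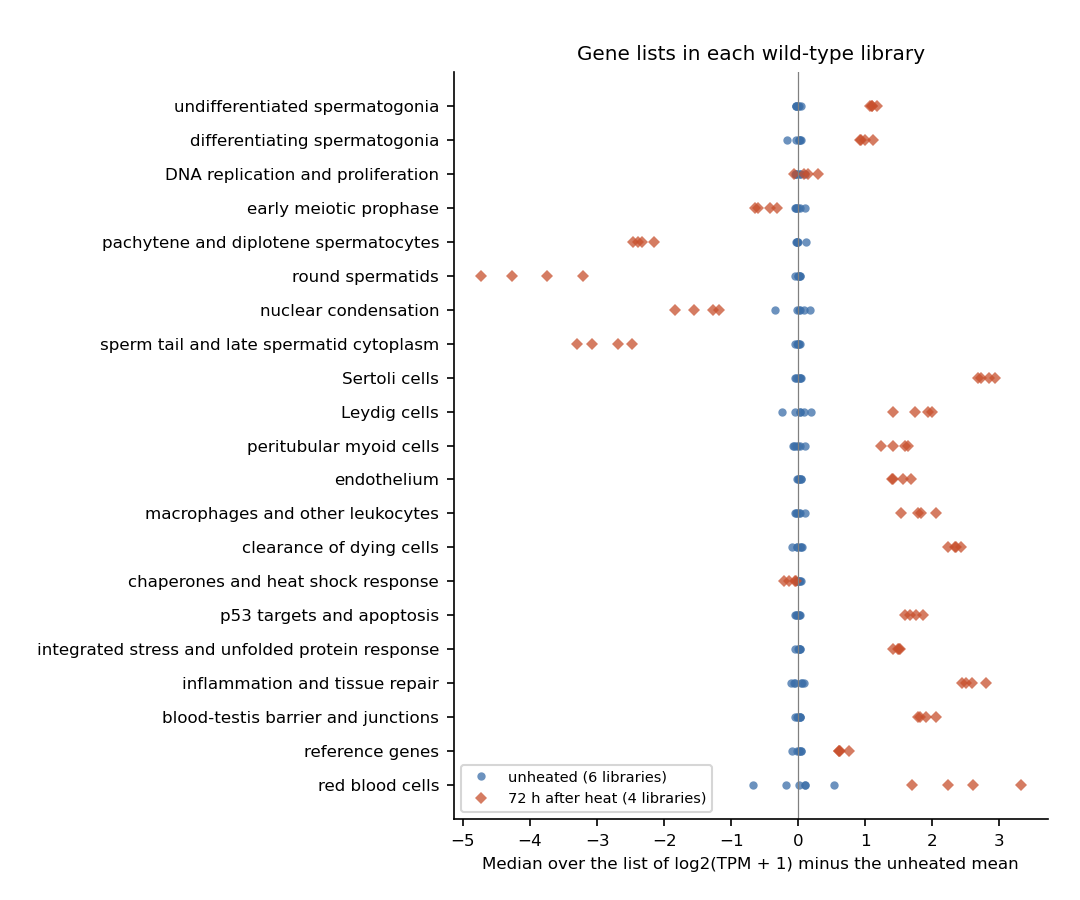
Each point is 1 library, placed on the x axis at the median, over the tested genes of a list (y axis), of log2(TPM + 1) minus the mean of the 6 unheated libraries. Heated libraries (diamonds) sat to the left for spermatocyte and spermatid lists, furthest for round spermatids (-4.74 to -3.21), and to the right for somatic cell lists.

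Medians of the germ cell lists were above 0 for both lists of spermatogonia, below 0 from early meiotic prophase on and lowest for round spermatids. Among undifferentiated spermatogonia, the stem and progenitor cells, 7 of 10 tested genes were higher, 2 lower and 1 not called, with a median log2 change of 1.10, and 4 of the 14 genes listed were below the filter (Nanos2, Nanos3, Eomes and Utf1). The median depended on the low genes, at 0.40 without the filter and 1.66 with a pseudocount of 0.1, and Ret had an unheated mean under 1 TPM and passed the filter through the heated group. The transcription factor Zbtb16 stood at 1.11 TPM (lowest), 1.25 TPM (median) and 1.59 TPM (highest) in the unheated libraries, against 4.59, 6.11, 5.26 and 5.81 TPM in heated replicates 1 to 4. All 4 heated libraries lay above all 6 unheated ones (log2 change 1.49 ± 0.09, adjusted p = 6.4e-09; 4.23-fold higher). Gfra1, the receptor for the Sertoli cell factor Gdnf, was 1.88-fold higher (log2 change 0.59 ± 0.13, adjusted p = 0.00084), with heated replicate 3 at 4.48 TPM and the other heated libraries at 2.35 to 2.81 TPM. Id4, a factor of the stem cell state, went the other way, from 9.94 ± 0.763 to 6.105 ± 0.785 TPM (SD, n = 6 and 4; log2 change -0.63 ± 0.08, adjusted p = 1.6e-05), and so did Pou5f1 (-1.18 ± 0.12).

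Among differentiating spermatogonia, 8 of 10 tested genes were higher, 1 lower and 1 not called, with a median of 1.00, and 7 were higher without heated replicate 3. Kit, the receptor that marks the switch to differentiation (chromosome 5, 75574916 to 75656722, plus strand of mm10), was measured at 8.43 TPM (lowest), 9.465 TPM (median) and 10.65 TPM (highest) in the unheated libraries, against 28.5, 37.3, 27.8 and 30.9 TPM in heated replicates 1 to 4. No heated library overlapped the unheated range (log2 change 1.59 ± 0.09, adjusted p = 6.6e-09). The ubiquitin hydrolase Uchl1 was 2.38-fold higher (log2 change 1.24 ± 0.09, adjusted p = 7.6e-08). Stra8, induced by retinoic acid at the entry into meiosis, did not differ by the test: it was at 7.86 to 10.97 TPM unheated and 8.78 to 10.6 TPM heated (log2 change 0.003 ± 0.09, adjusted p = 0.98). Dmrtb1, a regulator of the step from mitosis to meiosis, was the 1 lower gene of the list and fell from 704 ± 38.7 to 32.4 ± 13.3 TPM. Ccnd2, a G1 cyclin, was 5.91-fold higher, or 9.69-fold without unheated replicate 1. Neurog3 was listed too and was below the filter. Whether the listed genes, Uchl1 and Neurog3 among them, mark differentiating rather than undifferentiated spermatogonia was not checked. Which cells of the testis held the listed transcripts was not tested.

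Genes of DNA replication and cell division gave no common direction. Of 15 tested, 6 were higher, 5 lower and 4 not called, with a median of 0.14 whose sign turned under median-of-ratios scaling (-0.01), and 8 were higher without heated replicate 3. The sliding clamp Pcna fell from 101 ± 1.86 to 56.9 ± 1.79 TPM, with heated libraries at 54.6 to 58.7 TPM and unheated ones at 98.6 to 103.5 TPM. The proliferation marker Mki67 was at 5.54 to 8.84 TPM unheated and at 8.90, 8.11, 6.46 and 8.23 TPM in heated replicates 1 to 4 (adjusted p = 0.12). Without heated replicate 3 it passed the test (log2 change 0.28, adjusted p = 0.038), as did the helicase subunit Mcm5 (0.20, adjusted p = 0.023; 0.14 and 0.078 with it). Mki67 also passed without unheated replicate 4 (0.26, adjusted p = 0.021), and both passed after rescaling without mitochondrial transcripts (0.34 and 0.29).

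Genes of early meiotic prophase split. Of 25 tested, 8 were higher, 15 lower and 2 not called, with a median of -0.51, or -0.25 among genes averaging 5 TPM or more. Dmc1, the recombinase that pairs homologous chromosomes (chromosome 15, 79561497 to 79605109, minus strand), was higher after heat, at 9.59 TPM (lowest), 10.97 TPM (median) and 11.6 TPM (highest) in the unheated libraries, against 38.9, 38.85, 34.9 and 39.4 TPM in heated replicates 1 to 4. That was a 3.51-fold difference with no overlap (log2 change 1.72 ± 0.06, adjusted p = 2e-10). The synaptonemal complex protein Sycp3 rose from 169 ± 16.4 to 344 ± 17.2 TPM and the axis protein Hormad1 from 81.9 ± 6.42 to 202 ± 13.4 TPM, and Sycp1 was 1.65-fold higher. The cohesin subunit Rec8 and the nuclease Spo11, which makes the meiotic DNA breaks, fell: Rec8 stood at 57.45 TPM (lowest), 62.8 TPM (median) and 69.7 TPM (highest) in the unheated libraries, against 15.2, 14.7, 12.5 and 11.98 TPM in heated replicates 1 to 4. Spo11 was at 43.8 to 47.9 TPM unheated and 9.22 to 12.7 TPM heated (log2 change -2.01 ± 0.08, adjusted p = 3.2e-10). Genes that act side by side on the same chromosome axes therefore stood on both sides, with Rec8 4.60-fold lower and Hormad1 2.47-fold higher in the same libraries.

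Genes of pachytene and diplotene spermatocytes were mostly lower. Of 22 tested, 19 were lower, 2 higher (Cdk1 and Spata22) and 1 not called (Cks2), with a median of -2.34. Hspa2, the testis chaperone of the synaptonemal complex, was measured at 525 TPM (lowest), 596 TPM (median) and 629 TPM (highest) in the unheated libraries, against 92.9, 63.35, 70.8 and 102 TPM in heated replicates 1 to 4. All 4 heated libraries lay far below the unheated range (log2 change -2.85 ± 0.12, adjusted p = 4.5e-10). The cyclin Ccnb2 fell 7.25-fold and the endoplasmic reticulum chaperone Clgn 10.3-fold. Piwil1, which binds piRNAs in pachytene spermatocytes, was at 157 to 178 TPM unheated and at 11.1, 4.99, 13.5 and 33.3 TPM in heated replicates 1 to 4. Its fall was 10.6-fold, or 16.96-fold without heated replicate 4, which kept the most of it. Mybl1, the transcription factor that turns on many pachytene genes, fell less, from 27.1 ± 2.27 to 14.04 ± 1.03 TPM.

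Round spermatid genes fell furthest. Of 23 tested, 21 were lower and 2 not called (Tssk3 and Tssk6), with a median of -4.04, and 19 fell by at least 2-fold. Acr, the acrosomal protease, stood at 211 TPM (lowest), 222 TPM (median) and 227 TPM (highest) in the unheated libraries, against 9.87, 2.25, 3.02 and 8.12 TPM in heated replicates 1 to 4. The fall was 37.95-fold (log2 change -5.21 ± 0.29, adjusted p = 5.5e-09). Acrv1, an acrosomal matrix protein, was at 326 to 391 TPM unheated and at 27.65, 6.08, 4.91 and 8.50 TPM in heated replicates 1 to 4. Heated replicate 1 kept the most of it, and the fall of 30.3-fold became 54.95-fold without that library. Izumo1, the sperm protein that binds the egg, behaved likewise, at 5.52, 1.38, 1.20 and 1.60 TPM against 80.9 to 93.5 TPM, a fall of 35.7-fold, or 62.1-fold without heated replicate 1. The calcium channel subunit Catsper3 fell 30.6-fold. Some abundant genes of the list fell far less. Crisp2, an acrosome and tail protein, went from 2455 ± 144 to 1953 ± 234 TPM (log2 change -0.34 ± 0.08, adjusted p = 0.0015). Klhl10 went from 460 ± 8.55 to 406 ± 41.7 TPM (log2 change -0.18 ± 0.06), and Tssk2 and Actl7a fell 2.22-fold and 2.56-fold.

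A binding site for CREB and CREM family factors, which act in round spermatids, was looked for in the 250 bases before the start of each gene in the RefSeq promoter table of build GRCm38.p6. The motif TGACGTCA, which reads the same on both strands, stood in 508 of 32851 promoters (1.55%), in 186 of 6987 promoters of genes that were lower (2.66%) and in 159 of 8112 of genes that were higher (1.96%). Among listed spermatid genes it was found before Izumo1 and before the spermatid protein gene Spag4, both of which fell, and the windows are shown because the same 8 letters, in capitals, also stand before stress genes that rose.
Izumo1, chr7:45621655-45621782, plus strand: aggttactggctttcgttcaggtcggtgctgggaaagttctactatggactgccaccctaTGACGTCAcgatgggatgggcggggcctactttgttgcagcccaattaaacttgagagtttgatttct
Spag4, chr2:156065116-156065212, plus strand: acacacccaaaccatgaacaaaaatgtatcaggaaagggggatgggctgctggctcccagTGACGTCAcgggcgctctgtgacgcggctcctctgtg
Btg2, chr1:134079254-134079381, minus strand: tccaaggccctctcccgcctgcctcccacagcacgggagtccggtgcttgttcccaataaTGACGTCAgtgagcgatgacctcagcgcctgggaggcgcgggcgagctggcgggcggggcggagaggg
Ppp1r15a, chr7:45526269-45526340, minus strand: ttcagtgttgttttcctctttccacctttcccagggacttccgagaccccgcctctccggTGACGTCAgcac
Spag4 fell from 312 ± 20.7 to 19.5 ± 13.1 TPM (log2 change -4.12 ± 0.28). Btg2, an antiproliferative p53 target, rose from 2.405 ± 0.659 to 33.7 ± 5.97 TPM (log2 change 3.35 ± 0.15), and Ppp1r15a, which ends the integrated stress response, from 3.91 ± 0.381 to 17.4 ± 2.42 TPM (log2 change 1.90 ± 0.09). The same letters also stood before Mcm5, Flt1 and Plk2, so that they did not go with 1 direction. A match describes the letters in the window and no binding was measured. Motifs of RFX factors (GTTGCCATG) and of NR5A1 (CAAGGTCA) were searched too, besides the heat shock element given below. The RFX motif stood in 0.642% of all promoters, in 1.27% for lower and 0.357% for higher genes. It stood in 0 of 22 round spermatid promoters, and among the listed genes only before Hsph1 (2 of 23 chaperone promoters). The NR5A1 motif stood in 1.33% of all promoters, in 1.20% for lower and 0.925% for higher genes, and in 0 of 9 Leydig cell promoters. Among the listed genes it was found before Prm2 and the epididymal gene Defb42. With motifs this rare, no match in so few promoters says little.

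Transcripts of nuclear condensation fell less than those of round spermatids, and unequally. Of 7 tested, 6 were lower and 1 higher, with a median of -1.46. The transition protein Tnp1 (chromosome 1, 73015074 to 73015909, minus strand), which replaces histones before protamines do, stood at 12236 TPM (lowest), 12451.5 TPM (median) and 12664 TPM (highest) in the unheated libraries, against 3886, 1168, 2309 and 3453 TPM in heated replicates 1 to 4. Tnp1 and Tnp2 fell 4.60-fold and 4.42-fold, while protamine Prm1 fell 1.76-fold, from 6353 ± 1020.3 to 3601 ± 804 TPM. Protamine Prm2 was at 9392 TPM (lowest), 13211 TPM (median) and 14762 TPM (highest) in the unheated libraries, against 16631, 13880.5, 14829 and 16751 TPM in heated replicates 1 to 4. The ranges overlapped (log2 change 0.30 ± 0.11, adjusted p = 0.026), and the direction depended on the scaling, with a log2 change of -0.68 after quantile normalization. The call was also lost without the filter, under median-of-ratios scaling, with a replicate block, without heated replicate 1 (adjusted p = 0.078) and without heated replicate 4 (adjusted p = 0.075). The spermatid histone Hils1 fell 15.3-fold, or 24.1-fold without heated replicate 1, which held 192 TPM against 47.5 to 76.2 TPM in the others.

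The list of sperm tail and late spermatid cytoplasm held genes that fell steeply beside genes with small changes in either direction. Of 22 tested, 14 were lower, 12 of them by at least 2-fold, 6 higher and 2 not called, with a median of -2.92. The other lower genes were Odf2 and Spa17, with log2 changes of -0.41 and -0.73. Tektins of the tail microtubules were among the steep falls, with Tekt3 going from 172 ± 3.72 to 4.07 ± 2.61 TPM. Odf1, a protein of the outer dense fibres, stood at 1939.7 TPM (lowest), 2078 TPM (median) and 2131 TPM (highest) in the unheated libraries, against 3387, 2827, 3576 and 3429 TPM in heated replicates 1 to 4. The mitochondrial sheath protein Smcp went from 3739 ± 135 to 5756 ± 659.7 TPM. Both were called higher on TPM (0.68 ± 0.06 and 0.62 ± 0.07), but after quantile normalization Odf1 was at 0.08 and no longer called and Smcp at -0.29. The fibrous sheath protein Akap4 was not called (1269 to 1489 TPM unheated, 1196 to 1598 TPM heated; adjusted p = 0.44), and neither was the sperm glycolytic enzyme Gapdhs (log2 change 0.11 ± 0.09). Without heated replicate 2 both were called higher, at 0.14 and 0.19, and so they were after rescaling without mitochondrial transcripts (0.22 and 0.26), whereas Gapdhs was called lower after quantile normalization (-0.23). The other genes called higher on TPM were Spem1, Cabs1, Fscn3 and Gsg1, with log2 changes of 0.31 to 0.66.

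The 4 heated libraries kept 1 order in these 3 spermatid lists. The median deviation of round spermatid genes from the unheated mean was -3.21, -4.74, -4.27 and -3.74 in heated replicates 1 to 4. It was -1.18, -1.84, -1.55 and -1.27 for nuclear condensation and -2.47, -3.29, -3.07 and -2.69 for the tail and cytoplasm list. Heated replicate 2 was the lowest and replicate 1 the highest in each, whereas for pachytene genes the range was narrower, from -2.46 to -2.16.

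**Figure D2:**
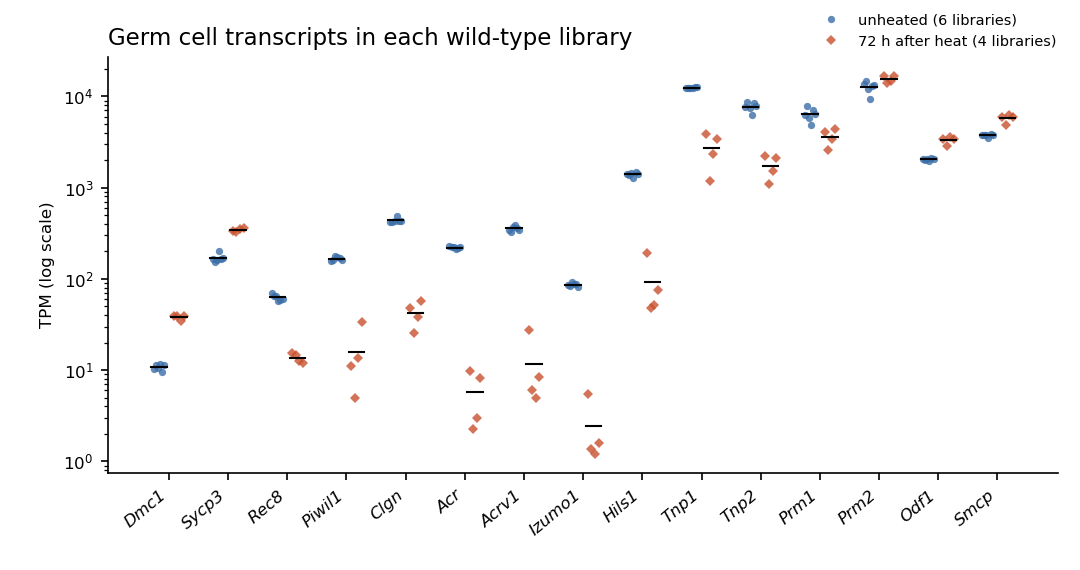
TPM of 15 germ cell genes (log y axis) in each of the 6 unheated (circles) and 4 heated (diamonds) libraries, with the group mean as a bar. Acr, Acrv1 and Izumo1 lay far below the unheated range after heat, Dmc1 and Sycp3 above it, and Prm2 overlapped it; quantile normalization turned the direction of Prm2 and Smcp.

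Sertoli cell transcripts rose together. All 20 listed genes were tested and higher, each by at least 2-fold, with a median of 2.77 and a range of 1.33 to 3.69; 2 of them had an unheated mean under 1 TPM and passed the filter through the heated group. Clu, the secreted chaperone clusterin (chromosome 14, 65968483 to 65981547, plus strand), stood at 739 TPM (lowest), 798 TPM (median) and 880.4 TPM (highest) in the unheated libraries, against 7147, 8080.0, 6437 and 6243 TPM in heated replicates 1 to 4. Its share of the library rose 8.66-fold (log2 change 3.11 ± 0.08, adjusted p = 1.6e-11). Cldn11, the claudin of the Sertoli cell tight junction (chromosome 3, 31149920 to 31164324, plus strand), was at 46.96 to 54.45 TPM unheated and 457, 555, 463 and 430.1 TPM in heated replicates 1 to 4. Fshr, the receptor for follicle-stimulating hormone, was 12.4-fold higher, the transcription factors Wt1 and Sox9 7.92-fold and 7.98-fold higher, and the inhibin subunit Inha 6.48-fold higher. Gdnf, which maintains spermatogonial stem cells, rose from 0.558 ± 0.0508 to 4.04 ± 0.431 TPM. Amh, the hormone of the immature Sertoli cell, went from 0.637 ± 0.0680 to 3.24 ± 1.32 TPM, with heated replicate 1 at 5.21 TPM and the others at 2.44 to 2.82 TPM.

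Leydig cell transcripts rose by less and with more spread. Of 14 listed, 13 were tested and higher, with a median of 1.72, and Inhba was below the filter. Dlk1 had an unheated mean under 1 TPM and passed the filter through the heated group. Insl3 (chromosome 8, 71689214 to 71690575, plus strand), a peptide hormone of Leydig cells, was measured at 682 TPM (lowest), 817 TPM (median) and 915 TPM (highest) in the unheated libraries, against 4249, 4057, 3104 and 3852 TPM in heated replicates 1 to 4. Star, which carries cholesterol into mitochondria, stood at 30.5 TPM (lowest), 49.4 TPM (median) and 92.8 TPM (highest) in the unheated libraries, against 433, 269, 198 and 195 TPM in heated replicates 1 to 4. Star varied widely among unheated libraries but did not overlap between the groups (log2 change 2.37 ± 0.31, adjusted p = 1.4e-05). The steroid enzymes Cyp11a1 and Cyp17a1 were 3.61-fold and 3.25-fold higher and the luteinizing hormone receptor Lhcgr 3.42-fold higher. In each of Insl3, Cyp11a1, Cyp17a1 and Lhcgr heated replicate 3 was the lowest of the heated libraries. Leaving it out raised the list median to 1.85.

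Muscle-like and vascular markers rose in the range of the Leydig list. Of 10 peritubular myoid genes, 9 were higher and 1 lower (Actg2), with a median of 1.47: the smooth muscle actin Acta2 was 3.04-fold higher (35.2 TPM (lowest), 37.8 TPM (median) and 39.7 TPM (highest) in the unheated libraries, against 114, 137, 106 and 97.2 TPM in heated replicates 1 to 4). Myh11 and Tagln were 2.69-fold and 2.32-fold higher. Of 12 endothelial genes, 12 were higher, with a median of 1.51, and 3 of them had an unheated mean under 1 TPM. The receptor Kdr rose from 1.04 ± 0.0875 to 4.86 ± 0.639 TPM, with heated replicate 3 the lowest at 3.91 TPM, and the von Willebrand factor Vwf rose from 4.90 ± 0.623 to 8.345 ± 1.15 TPM.

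Leukocyte markers were also higher with a few exceptions. Of 15 tested, 13 were higher, 1 lower and 1 not called (Fcgr3), with a median of 1.79, and 4 of the tested genes had an unheated mean under 1 TPM. Csf1r, the growth factor receptor of macrophages, stood at 4.13 TPM (lowest), 4.295 TPM (median) and 4.88 TPM (highest) in the unheated libraries, against 23.9, 28.4, 19.02 and 21.7 TPM in heated replicates 1 to 4. Lyz2, lysozyme of myeloid cells, was 8.06-fold higher, the complement gene C1qa 4.63-fold and Adgre1 4.62-fold. Cd68, of macrophage lysosomes, was at 27.1 TPM in heated replicate 2 and at 12.8 to 16.4 TPM in the others. Aif1 went against the list, from 793 ± 21.3 to 154 ± 50.3 TPM, and at its unheated level stood far above Csf1r. Among the listed genes, the neutrophil genes S100a8 and S100a9, the monocyte gene Ly6c2 and Ccr2 were below the filter.

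**Figure D3:**
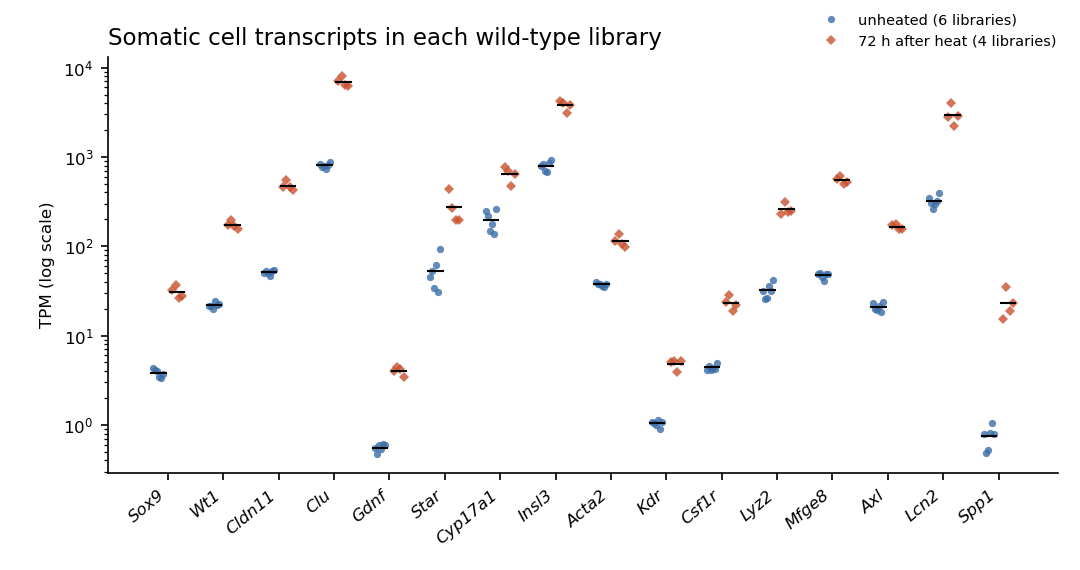
TPM of 16 genes of Sertoli cells, Leydig cells, myoid cells, endothelium, leukocytes, clearance and repair (log y axis) in each unheated (circles) and heated (diamonds) library, with the group mean as a bar. The heated and unheated libraries did not overlap in any of the 16, nor in 16567 of all 19142 genes tested. On the log axis Star had the widest unheated spread (30.5 to 92.8 TPM).

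Genes for the uptake of dying cells rose about as far as the Sertoli list. Of 17 listed, 15 were tested, of which 13 were higher and 2 lower (Adgrb1, whose heated mean was under 1 TPM, and Stab2), with a median of 2.42. Mfge8, which bridges phosphatidylserine on dying cells to integrins, stood at 40.96 TPM (lowest), 48.7 TPM (median) and 49.95 TPM (highest) in the unheated libraries, against 567, 615, 502 and 527 TPM in heated replicates 1 to 4. Axl and Mertk, receptors of Gas6 on phagocytes and Sertoli cells, were 7.86-fold and 7.95-fold higher, and their ligand Gas6 4.31-fold higher. The cholesterol exporter Abca1 rose from 9.65 ± 1.15 to 59.2 ± 9.04 TPM. Sertoli cells and macrophages express these genes, and the medians of their own lists were 2.77 and 1.79; the part of those cells in the rise was not tested.

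Junction genes were mostly higher. Of 15 tested, 12 were higher, 2 lower and 1 not called, with a median of 1.91. Occludin, Ocln, was at 3.63 to 4.33 TPM unheated and 21.7, 16.5, 19.6 and 14.4 TPM in heated replicates 1 to 4. The scaffold Tjp1 and N-cadherin Cdh2 were 1.67-fold and 2.14-fold higher. Nectin3, which spermatids use to attach to Sertoli cells, fell 7.36-fold, from 394 ± 28.7 to 53.5 ± 13.4 TPM. Cldn3 stood at 1.82, 0.600, 4.88 and 0.770 TPM in heated replicates 1 to 4 and 1.86 to 3.06 TPM unheated. It was not called with the epididymal library (adjusted p = 0.15) and was 2.53-fold lower without it (log2 change -0.88, adjusted p = 0.00069), against 1.33-fold with it.

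Chaperones and heat shock genes split evenly at this time, with 12 of 24 tested genes higher and 12 lower. Their median was -0.11, and its sign turned after quantile normalization (0.10), after rescaling without mitochondrial transcripts (0.04) and without the filter (0.16). The classical inducible gene Hspa1b stayed low: it was at 0.700 TPM (lowest), 1.13 TPM (median) and 1.23 TPM (highest) in the unheated libraries, against 2.96, 2.53, 2.82 and 2.23 TPM in heated replicates 1 to 4. Its near-identical copy Hspa1a was below the filter, with means of 0.628 to 1.43 TPM, and reads of these copies may be split between them. Hspa8, the constitutive cytosolic member of the family (chromosome 9, 40800984 to 40810087, plus strand), was measured at 171 TPM (lowest), 187 TPM (median) and 193 TPM (highest) in the unheated libraries, against 677, 843, 731 and 724 TPM in heated replicates 1 to 4. The small heat shock protein Hspb1 was at 12.6 to 21.4 TPM unheated and 147 to 204 TPM heated (log2 change 3.13 ± 0.14, adjusted p = 8.4e-10). Hmox1, heme oxygenase, was 7.18-fold higher, with heated replicate 2 at 82.1 TPM and the others at 64.2 to 65.0 TPM.

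Several abundant chaperones were lower. Hsp90aa1, the inducible cytosolic HSP90, fell from 1294 ± 108 to 608 ± 35.5 TPM, whereas its constitutive partner Hsp90ab1 rose from 223 ± 8.51 to 738 ± 53.1 TPM. The cochaperone Dnajb1 stood at 172 TPM (lowest), 173 TPM (median) and 180.0 TPM (highest) in the unheated libraries, against 57.9, 46.5, 54.02 and 59.97 TPM in heated replicates 1 to 4. Hsph1, a nucleotide exchange factor of the HSP110 family, fell 2.31-fold, Bag3 1.86-fold and the spermatid-specific Hspa1l 1.75-fold. The heat shock factor Hsf1 was slightly lower with overlapping ranges (log2 change -0.38 ± 0.10, adjusted p = 0.0028). Cirbp and Rbm3, RNA-binding proteins induced by cold, were higher, Cirbp by 1.67-fold and Rbm3 by 6.90-fold, with Rbm3 at 29.96 to 36.8 TPM unheated and 209.6 to 270.3 TPM heated.

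The mitochondrial chaperonin genes Hspd1 and Hspe1 lie head to head on chromosome 1 and moved together. Hspd1 went from 30.2 ± 2.28 to 186 ± 16.6 TPM and Hspe1 from 33.5 ± 3.14 to 152 ± 9.26 TPM, with log2 changes of 2.58 ± 0.07 and 2.16 ± 0.07. The heat shock element searched, the letters GAA, TTC and GAA with any 2 bases between each and the next, on either strand, stood in 153 of 32851 promoters (0.466%), in 29 of 8112 of genes that were higher (0.357%) and in 39 of 6987 of genes that were lower (0.558%). Within the chaperone list it was found in 2 of 23 promoters, those of these 2 genes, in the window they share, where matches on both strands overlap to give the 18 capital letters shown. The 23 promoters belong to 17 of the 24 tested chaperone genes, and the others had no promoter to search. Only exact matches within 250 bases were counted, so weaker or more distant elements would be missed. Among the other listed genes it was found before Uchl1 and Tex12.
Hspe1, chr1:55087999-55088136, plus strand: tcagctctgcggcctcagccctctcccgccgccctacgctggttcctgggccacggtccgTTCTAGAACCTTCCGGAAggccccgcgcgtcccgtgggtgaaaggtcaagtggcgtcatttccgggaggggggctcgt
Binding of heat shock factors was not measured.

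**Figure D4:**
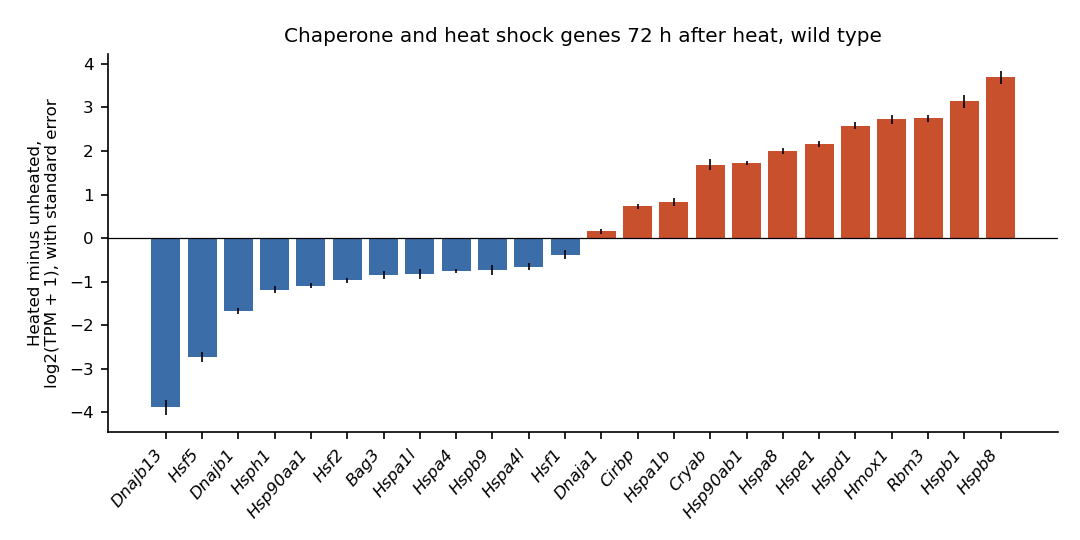
Bars give the log2(TPM + 1) change, heated minus unheated (y axis), of the 24 tested chaperone and heat shock genes, with standard errors. They ran from Dnajb13 at -3.88 to Hspb8 at 3.69, with 12 bars on either side of 0; Hspb8 had an unheated mean under 1 TPM and passed the filter through the heated group, and Hspa1a was below the filter and is not drawn.

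Genes of the p53 pathway and apoptosis were mostly higher, with 15 of 19 tested higher, 4 lower and a median of 1.76, and 4 of the tested genes had an unheated mean under 1 TPM. Bax, which permeabilizes the outer mitochondrial membrane, stood at 10.65 TPM (lowest), 12.1 TPM (median) and 13.4 TPM (highest) in the unheated libraries, against 49.15, 46.5, 38.1 and 40.6 TPM in heated replicates 1 to 4. The death receptor Fas was 8.003-fold higher and the BH3-only gene Bbc3 4.90-fold. Mdm2, the ubiquitin ligase of p53 and itself a p53 target, fell from 143 ± 7.37 to 62.98 ± 2.60 TPM, with heated libraries at 59.7 to 65.6 TPM and unheated at 135 to 154 TPM. The other lower genes were Tnfrsf10b, Bcl2l11 and Zmat3, with log2 changes of -1.68 to -0.93.

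In the integrated stress and unfolded protein response, 12 of 15 tested genes were higher, 2 lower (Asns and Sdf2l1) and 1 not called (Chac1), with a median of 1.48. Ddit3 stands on more than 1 entry of the table and was not used. Hspa5, the chaperone BiP of the endoplasmic reticulum, was at 403 TPM (lowest), 426 TPM (median) and 449 TPM (highest) in the unheated libraries, against 1212, 1197, 1225 and 1133 TPM in heated replicates 1 to 4. The transcription factor Atf4 was 2.34-fold higher, and Atf3 rose from 0.202 ± 0.0828 to 3.61 ± 0.585 TPM, so that it passed the filter through the heated group. Asns, asparagine synthetase and a target of Atf4, went the opposite way, from 146 ± 10.7 to 81.3 ± 8.96 TPM (log2 change -0.84 ± 0.08, adjusted p = 5.2e-07).

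Transcripts of inflammation and repair were higher in heated testes. Of 18 listed, 11 were tested, all 11 higher, with a median of 2.61. Since 4 of these had an unheated mean under 1 TPM, and the other 7 of the list, among them the cytokine genes Il1b, Il6 and Tnf, were below the filter, the count describes only the tested ones. Timp1, an inhibitor of matrix proteases, rose from 1.41 ± 0.224 to 144 ± 43.7 TPM, a log2 change of 5.86 ± 0.17. The acute-phase protein Lcn2 stood at 261 TPM (lowest), 315 TPM (median) and 394 TPM (highest) in the unheated libraries, against 2787, 4053, 2204 and 2899.8 TPM in heated replicates 1 to 4. Spp1, osteopontin, was at 0.480 to 1.04 TPM unheated and 15.2, 34.7, 18.8 and 23.2 TPM in heated replicates 1 to 4. The cytokine Il1a rose from 0.0933 ± 0.0367 to 3.02 ± 0.564 TPM, Tgfb1 was 7.32-fold higher, the adhesion molecule Icam1 5.16-fold and the feedback inhibitor Socs3 11.3-fold. Heated replicate 2 was the highest library for Lcn2, Spp1, Il1a, Tgfb1, Icam1 and Socs3 alike.

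Hemoglobin and other red cell transcripts, which enter with the blood in a tissue, were higher too. The 8 listed genes summed to 91.8 to 198.9 TPM in unheated and 517 to 1387 TPM in heated libraries, and 5 of 5 tested were higher, with a median of 2.40. The median of the epididymal list, of which 6 of 20 genes were tested and 5 of these had an unheated mean under 1 TPM, was 1.74 with heated replicate 3 and -0.01 without it.

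Many genes of metabolism and protein synthesis have a germ cell copy, often a retrogene, beside a paralog that most cells use. Where the paralog is X-linked, the copy works while the X chromosome is silent in meiosis. Of 23 pairs written as such, 18 germ cell copies were lower, 1 higher and 4 not called, while 18 paralogs were higher and 5 lower. Whether each member counted as a copy, among them Pgam2, Tbpl1 and Vdac3, is limited to germ cells was not checked. The median log2 change was -1.59 for the copies and 2.25 for the paralogs. The log2 ratio of copy to paralog fell in 20 of 23 pairs and the libraries of the groups overlapped only for Hspa4l with Hspa4 and Ybx2 with Ybx1. For 9 pairs with an X-linked paralog the medians were -1.58 and 2.38, and for 14 pairs with an autosomal one -1.74 and 2.22.

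Single pairs show the turn. The ribosomal protein gene Rpl10l fell from 234 ± 11.1 to 64.7 ± 7.81 TPM and X-linked Rpl10 rose from 93.7 ± 9.66 to 665 ± 70.2 TPM. Cetn1, a centrin of the spermatid, fell from 676 ± 29.96 to 56.3 ± 24.4 TPM and X-linked Cetn2 rose from 10.2 ± 0.594 to 55.9 ± 1.74 TPM. Among enzymes of glycolysis, Pgam2 fell from 1419 to 483 TPM and Pgam1 rose from 40.7 to 228 TPM, and the testis cytochrome c gene Cyct fell from 141 to 35.3 TPM while Cycs rose from 32.3 to 209 TPM. In each of these pairs the copy was the more abundant of the 2 without heat and the paralog gained on it after heat.

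Some pairs did not follow. Lactate dehydrogenase Ldhc fell from 4504 ± 235 to 384 ± 142 TPM, but its paralog Ldha fell as well, from 961 ± 25.1 to 124 ± 18.3 TPM. Paralogs Tbp, Ybx1, Hspa4 and X-linked Cstf2 also fell, with log2 changes of -1.86 ± 0.06, -1.999 ± 0.06, -0.75 ± 0.05 and -1.25 ± 0.08. Pgk2, the germ cell phosphoglycerate kinase, was slightly higher (log2 change 0.24 ± 0.07, adjusted p = 0.0052), which was not called under median-of-ratios scaling (0.08) or quantile normalization (0.13), and X-linked Pgk1 was 5.000-fold higher. Gapdhs, Slc25a31, Vdac3 and Cstf2t were not called on TPM. Vdac3 was called higher after quantile normalization (0.22) and lower after median-of-ratios scaling (-0.23). Reads of near-identical copies such as Rpl10l and Rpl10 may be shared between them.

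**Figure D5:**
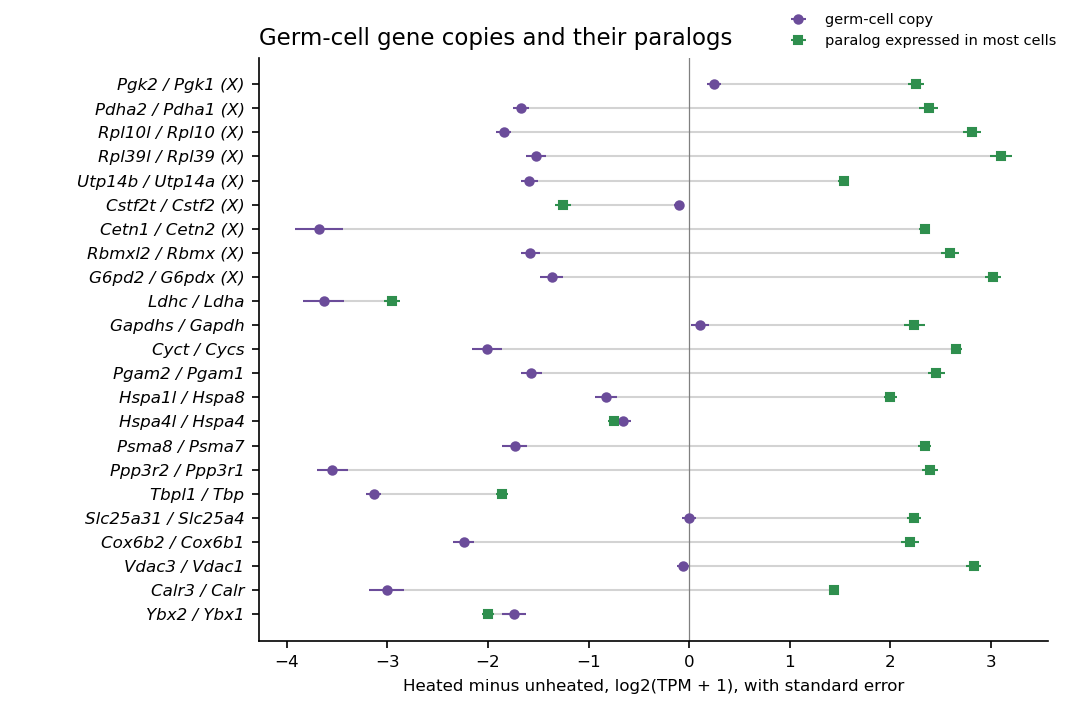
Log2(TPM + 1) change, heated minus unheated (x axis), of the germ cell copy (circles) and its paralog (squares) in 23 pairs (y axis; X marks an X-linked paralog), with standard errors. In most pairs the circle lay left of 0 and the square right; Ldha, Tbp, Ybx1, Hspa4 and Cstf2 fell, and the directions of Gapdhs and Vdac3 turned with quantile normalization.

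The sex chromosomes differed from the autosomes in their balance. Of 880 genes tested on the X chromosome, 588 (66.8%) were higher and 247 lower, with a median log2 change of 1.34. Of 174 on the Y chromosome, 31 were higher and 140 (80.5%) lower, with a median of -1.58. Reads of near-identical Y-linked copies may be shared between them, so these 174 may not be separate measures. The 17833 autosomal genes had a median of 0.09, with 47.2% higher and 44.0% lower. Among autosomes, chromosome 14 had the lowest median (-0.54, with 436 of 793 genes lower) and chromosome 2 the highest (0.33). In the mouse, the X chromosome is silenced in spermatocytes and stays largely silent in spermatids, and many Y-linked gene copies are expressed in spermatids.

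Mitochondrially encoded transcripts took a larger share after heat. They made up 0.72% to 0.87% of the total in unheated and 5.02% to 6.23% in heated libraries, and 12 of the 15 tested were higher. Predicted genes aside, the mitochondrial ribosomal RNAs mt-Rnr2 and mt-Rnr1 had the largest positive moderated t at a mean TPM of 10 or more. The former went from 80.4 ± 4.39 to 1614 ± 128 TPM and the latter from 88.8 ± 6.54 to 1453 ± 96.4 TPM. A group of 4 annotated pseudogenes within chr1:24613189-24616197 (Gm29216, Gm28661, Gm28437 and Gm10925), picked after their values were seen, rose alongside, from 1.15% to 1.36% of the total to 5.69% to 6.99%. They are copies of mitochondrial DNA, so that reads may be shared between them and the mitochondrial genome. The 10 most abundant transcripts held 5.61% to 6.60% of the total in unheated and 11.7% to 13.4% in heated libraries.

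Genes that averaged 10 TPM or more were ranked by moderated t, with predicted genes (such as those named Gm and a number) left out. Those at either end of the ranking were not marker genes of the lists. Besides mt-Rnr2 and mt-Rnr1, the rises were Uxs1, Cd99l2, Igfbp3 and Clec12b. Igfbp3, which binds insulin-like growth factors (chromosome 11, 7206086 to 7213923, minus strand), stood at 1.38 TPM (lowest), 1.535 TPM (median) and 2.23 TPM (highest) in the unheated libraries, against 91.97, 87.9, 101 and 94.1 TPM in heated replicates 1 to 4. It was 56.6-fold higher (log2 change 5.16 ± 0.09, adjusted p = 8.2e-12). Uxs1, an enzyme of proteoglycan sugar synthesis, rose from 24.8 ± 0.874 to 196 ± 10.7 TPM, and Clec12b, a C-type lectin, from 10.98 ± 0.404 to 101 ± 6.64 TPM. X-linked Cd99l2, an adhesion protein, rose 11.4-fold.

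The falls of the same rank were Sgms2, Ccdc38, Atp10a, Dynlt1b, Spag1 and Ralgds. Sgms2, a sphingomyelin synthase (chromosome 3, 131318985 to 131491411, minus strand), stood at 66.45 TPM (lowest), 71.8 TPM (median) and 78.97 TPM (highest) in the unheated libraries, against 6.11, 5.53, 5.64 and 5.52 TPM in heated replicates 1 to 4. The heated libraries spanned only 5.52 to 6.11 TPM (log2 change -3.45 ± 0.06, adjusted p = 8.2e-12), whereas Acr spanned 2.25 to 9.87 TPM in the same libraries. Ccdc38, a coiled-coil protein, fell 16.5-fold, the lipid flippase Atp10a 12.9-fold, the dynein assembly factor Spag1 6.39-fold and Ralgds, an activator of RAL GTPases, 6.44-fold. Dynlt1b fell from 362 ± 9.43 to 89.1 ± 1.90 TPM, with near-identical copies in the genome that may share its reads.

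Genes often used to normalize expression were not stable between the groups. Of 15 tested, 11 were higher, 3 lower (Tbp and Rplp0 among them) and 1 not called (Actb), with a median of 0.65. Gapdh rose from 85.8 ± 8.98 to 411 ± 61.3 TPM, Hprt from 10.3 ± 0.566 to 75.4 ± 6.54 TPM and B2m from 62.4 ± 7.47 to 515 ± 121 TPM. Tbp, the TATA-binding protein, fell from 148 ± 5.70 to 39.97 ± 3.74 TPM. Actb was at 569 to 747 TPM unheated and 562 to 741 TPM heated (adjusted p = 0.53), and was called lower after median-of-ratios scaling (-0.23). The smallest called changes were those of Ppia (log2 change 0.40 ± 0.04) and Rplp0 (-0.19 ± 0.06), of which Rplp0 lost its call with a replicate block and after rescaling without mitochondrial transcripts.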

How the data were processed

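RNA of whole testes was extracted with Trizol, made into libraries with a stranded kit for polyadenylated RNA and sequenced on an Illumina instrument (labels' protocols). Reads were handled with STAR on mm10, per the submitters' processing notes. The version, the annotation, the quantifier and its use of strand are not stated there. The values are TPM deposited by the authors, 1 table for all libraries, with the same sum in each. TPM keeps no depth, so precision was judged from replicates: a gene's log2(TPM + 1) had a median SD of 0.110 among unheated and 0.148 among heated libraries.

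Symbols on more than 1 entry (117) were left out of the lists. Of 55453 symbols, 54510 were found in GENCODE M21, which gave positions and chromosomes on mm10. Genes averaging 1 TPM or more over the 10 wild-type libraries were fitted on log2(TPM + 1) by group with limma 3.58.1 under R 4.3.3 (empirical Bayes with a mean-variance trend, 2-sided). Adjusted p-values are Benjamini-Hochberg values over the 19142 genes. The fit was also run on simulated data in which both groups had the spread of the unheated libraries and few genes changed. Those settings differ from these data, so that run checks the code and not the error rates here. Errors are moderated SE for log2 changes and SD between libraries for TPM. The moderated SE takes 1 variance per gene for both groups, and a larger spread among heated libraries was not modelled. Folds are ratios of mean TPM, and log2 changes understate those of low genes.

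The 22 lists and 23 pairs were written from textbook knowledge, with earlier results of these data known, and received no set test. Genes were named by a rule: starred members of the lists, members of the pairs, and the 6 largest and 6 smallest moderated t among called genes that averaged 10 TPM or more and did not overlap between the groups. Predicted genes (Gm and a number, names ending in Rik, clone names) were left out of that ranking by t. Further names, such as the members that went against their list, Timp1, Tekt3, Ccnd2, Hsp90ab1 and the genes with promoter motifs, were chosen after their values were seen. Alternatives were another pseudocount (0.1), no filter or a mean of 5 TPM, median-of-ratios scaling, quantile normalization, all 21 libraries, no trend, a replicate block and each library left out; a rescaling without mitochondrial genes and their copies was added after the data were seen. A few listed genes are not reported here.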

Additional observations from a re-analysis of the deposited data

Results flagged for a closer look

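A library was picked out where its gap to the nearest other library of its group exceeded the 95% critical value of Dixon's test, in the groups of 4 heated and 6 unheated libraries. Chance gives about 1 in 20, and 28 values were picked out over 312 groups of gene values and 4 over 44 groups of list medians. Their causes were not tested.

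Unheated replicate 4 accounted for many of them. It was higher than the other unheated libraries for the meiotic genes Sycp3 (199.98 TPM), Hormad1 (94.22 TPM), Clgn (484.58 TPM) and Utp14b (13.52 TPM). It was also higher for Akap4 (1488.56 TPM), Ccdc38 (310.22 TPM), Hspa4l (891.27 TPM), Slc25a31 (42.45 TPM), Spag1 (40.84 TPM) and Vdac3 (425.78 TPM). It was lower for Actb (569.2 TPM), Cldn3 (1.86 TPM), Rplp0 (872.93 TPM) and Smcp (3470.31 TPM). Over lists, its median log2 deviation was -0.168 for differentiating spermatogonia and 0.123 for pachytene and diplotene spermatocytes, against -0.027 to 0.048 and -0.031 to -0.004 in the other unheated libraries. Unheated replicate 6 was the highest for Zbtb16 (1.59 TPM) and Cd99l2 (6.25 TPM).

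Heated replicate 1 kept the most of the spermatid transcripts Acrv1 (27.65 TPM), Izumo1 (5.52 TPM) and Calr3 (23.05 TPM), and was the highest for Amh (5.21 TPM) and Rplp0 (942.15 TPM). Heated replicate 2 was the highest for Hmox1 (82.08 TPM), Icam1 (8.53 TPM), Cdh2 (64.66 TPM) and Ppia (785.78 TPM). Heated replicate 3, the library with epididymal transcripts, had a median log2 deviation of 6.24 for the epididymal list, against -0.011 to -0.008 in the other heated libraries, and 0.758 for reference genes. It was the lowest for Dmc1 (34.9 TPM) and Kdr (3.91 TPM). Heated replicate 4 was the highest for Hsp90aa1 (660.97 TPM).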

How the results depend on the processing

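The 4 counts of called genes kept within 1.5 times their value under each of the 19 alternatives run. With 1 library left out at a time, 9018 to 9166 genes were higher and 8277 to 8358 lower, and 5896 to 6067 and 5682 to 5851 changed by at least 2-fold. Without the filter 12960 were higher and 11811 lower, and with a minimum mean of 5 TPM they were 6410 and 5964. Median-of-ratios scaling gave 8579 higher and 8921 lower, and quantile normalization 9365 and 8080. A replicate block gave 8874 and 8218. No pairing by replicate number was seen. The deviations of same-numbered heated and unheated libraries correlated at -0.02, 0.01, 0.02 and 0.03 for replicates 1 to 4, and none correlated best with its own number. The best-matching unheated libraries reached only 0.03 to 0.09, so this check could not settle whether the libraries were paired. Of 156 named genes, the block changed the calls of Prm2 (adjusted p = 0.072) and Rplp0 (adjusted p = 0.061). Quantile normalization reversed Prm2 (-0.68), Smcp (-0.29), Gapdhs (-0.23) and Vdac3 (0.22), and ended the calls of Odf1 and Pgk2 and called Cstf2t lower; the cause was not tested. Median-of-ratios scaling ended the calls of Prm2 and Pgk2 and called Actb, Cstf2t, Slc25a31 and Vdac3 lower. Rescaling without mitochondrial transcripts ended the call of Rplp0 and called Akap4, Gapdhs, Mcm5 and Mki67 higher. List medians kept their sign except those of DNA replication (-0.01 to 0.29), chaperones (-0.38 to 0.16) and epididymis (-0.01 to 2.45). The median of undifferentiated spermatogonia, 1.10, fell below that of differentiating ones without the filter (0.40 and 0.85) and at a mean of 5 TPM (0.89 and 1.19). Without the reads behind the TPM values, the counting error of low genes is unknown.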

Other observations

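The most abundant transcripts of the tissue changed places. Without heat, the lactate dehydrogenase Ldhc and the spermiogenesis gene Meig1 were among the 10 most abundant, at 4504 ± 235 to 384 ± 142 TPM and 3214 ± 137 to 300.4 ± 123 TPM in unheated and heated testes (SD, n = 6 and 4). After heat, the lysosomal protease Ctsl, at 456 ± 40.4 to 5935 ± 936 TPM, and the beta-defensin Defb19, at 665 ± 52.2 to 6055 ± 473 TPM, stood among the 11 most abundant. The lim-domain gene Fhl4, among the 20 most abundant without heat, fell from 2379 ± 131 to 1153 ± 172 TPM. The choice of these genes followed from their values.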
